A study of Homo sapiens with 24 samples.

Results

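The semaphorins, plexins and neuropilins are a family of guidance ligands and their receptors. They were followed here in HCT-116 cells, a human colorectal cancer line, treated with butyrate in the absence or presence of an inducible block of Wnt signaling. The members were all array probes, control spots left out, whose gene name begins with SEMA3, SEMA4, SEMA5, SEMA6, SEMA7 or PLXN, or is NRP1 or NRP2. They comprised 46 of the 34127 probes and 31 of the 27274 gene names on the array: 20 semaphorins, 9 plexins and 2 neuropilins. This rule uses names and no measured value.

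All cells came from 1 stably transfected HCT-116 clone that carries the Tet repressor and a doxycycline-inducible, FLAG-tagged dominant-negative Tcf4 (DN-Tcf4), a form of the Wnt transcription factor Tcf4 that cannot bind beta-catenin. Cells were mock-treated (Ctl), given sodium butyrate at 5 mM (NaB), given doxycycline at 4 μg/ml (Doxy), or given doxycycline and then the combination (DoxyNaB), with cotreatment for 17.5 hr. Each treatment was run in 6 experiments, which gave 24 one-colour 60-base oligonucleotide arrays, and the methods call the experiments biological replicates of this single clone. The comparisons asked how butyrate changed expression without doxycycline (NaB/Ctl) and with it (DoxyNaB/Doxy), and whether the 2 responses differed. By the study's western blot, DN-Tcf4 protein was minimal with doxycycline alone and high with both agents. DoxyNaB and Doxy therefore differ in DN-Tcf4 as well as in butyrate, and Doxy/Ctl holds little DN-Tcf4. No array held cells lacking the construct, so an effect of doxycycline itself and one of DN-Tcf4 cannot be told apart.

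Semaphorins are extracellular ligands first known for steering growing axons: class 3 members are secreted, classes 4, 5 and 6 span the membrane, and SEMA7A is held by a lipid anchor. Plexins are their receptors and signal through small GTPases to the cytoskeleton and to integrins, while the neuropilins NRP1 and NRP2 help plexin-A receptors to bind class 3 semaphorins and also bind vascular endothelial growth factor. In epithelial tumours the family is known for effects on cell migration, on vessel growth and, through plexin-B receptors that pair with MET and ERBB2, on growth factor signaling.

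Levels are given as the log2 of the processed signal of a probe relative to the 75th percentile of its own array, so that 0 is the level of the 75th percentile and a difference of 1 is a 2-fold difference. A change was called when it exceeded 2-fold with a Benjamini-Hochberg adjusted p under 0.01 in limma, fitted over all tested probes with the experiment as a block. Changes are followed by the standard deviation (SD) of the within-experiment differences, with n = 6 experiments unless stated. Different probes bind with different strength, so levels of different genes are not set against each other.

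Between 52.7% and 88.1% of spots were well above background on an array. The 12 arrays of experiments 2 to 4 lay at 78.4% to 88.1% and those of experiments 1, 5 and 6 at 52.7% to 62.6%. The Ctl and Doxy arrays of experiment 1 were on 1 slide and its butyrate arrays on another, where slide and butyrate cannot be told apart. The other experiments had 1 slide each. The mean signal of negative control spots moved with butyrate in experiments 2 to 4, at 63.1 to 76.9 in Ctl and 68.7 to 79.6 in Doxy against 112 to 161 in NaB and 69.1 to 248.9 in DoxyNaB. In experiments 1, 5 and 6 it was 48.4 to 64.3 over all treatments. Within experiments 5 and 6 the NaB/Ctl changes of faint members were 2.25 for NRP2, 1.30 for PLXNA4, 3.18 for SEMA6A and 0.76 for SEMA7A, the last not called, and within experiments 2 to 4 they were 1.73, 1.61, 4.00 and 2.33. TCF7L2, the gene for Tcf4, has 3 tested probes, and which of them the construct contains is not given in the sources used here. In DoxyNaB/NaB 2 of them rose, 21.9-fold (adjusted p 1.77e-06) and 7.80-fold (adjusted p 3.65e-05), and the third fell by 1.25 on the log2 scale (adjusted p 0.00569). In Doxy/Ctl none was called, with changes of 0.30, -0.17 and 0.36. In NaB/Ctl, in the same order, the changes were 1.90 (adjusted p 0.000468), 0.91 (adjusted p 0.0294) and -0.08 (adjusted p 0.777), so the first probe also rose with butyrate alone. In DoxyNaB/Doxy they were 6.06 (adjusted p 2.9e-10), 4.04 (adjusted p 1.07e-08) and -1.70 (adjusted p 8.08e-06). The Wnt target AXIN2 was lower in DoxyNaB than in NaB by a log2 change of -2.53 ± 0.34 (adjusted p 2.63e-11). In Doxy/Ctl AXIN2 was also lower, by -0.58 ± 0.15 (adjusted p 0.0029), which is under 2-fold.

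Of the 46 member probes, 30 probes of 23 genes entered the tests because some treatment had all 6 of its arrays well above background, and 20 probes of 17 genes were well above background on all 24 arrays. None was saturated on any array. The 8 genes with no tested probe were the receptors PLXNA2 and PLXNC1, the secreted ligands SEMA3D and SEMA3E, and the transmembrane ligands SEMA4A, SEMA5A, SEMA5B and SEMA6D. SEMA3E, the known ligand of PLXND1, and SEMA6D were well above background on 0 of the 24 arrays. The 16 untested probes were well above background in 121 of 192 values in experiments 2 to 4 and in 16 of 192 values in experiments 1, 5 and 6. The filter leaves out probes that pass mainly on the arrays of experiments 2 to 4, so such a gap is built in and no result about the family is drawn from it. Both class 5 semaphorins fell outside the tests, so no change is given for that class.

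**Figure D1:**
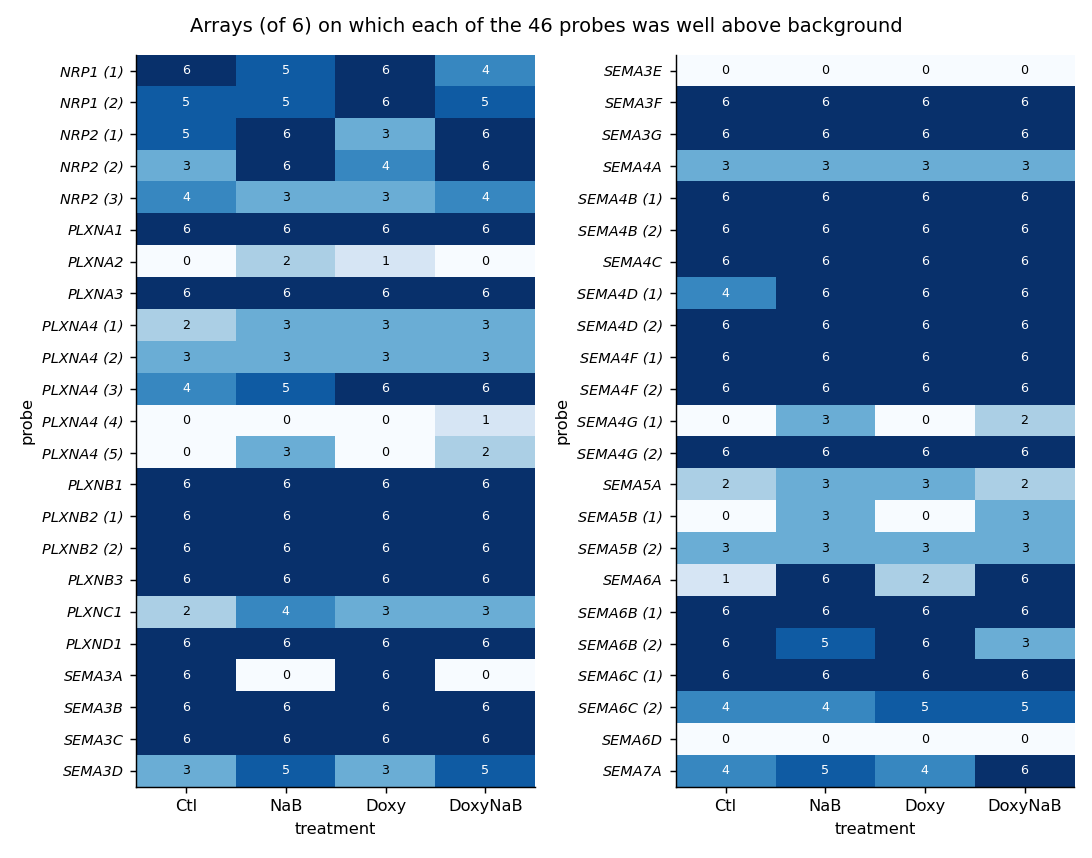
Number of arrays, of 6 per treatment, on which each of the 46 member probes was well above background, shown by shade with the probes in lines and the 4 treatments in columns. SEMA3A passed on no NaB or DoxyNaB array, SEMA6A passed on 1 Ctl array and 2 Doxy arrays, and SEMA3E and SEMA6D passed on none.

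Butyrate changed most of the measured genes of the family, and more of them rose than fell. In NaB/Ctl, 18 of the 30 tested probes were called (60%), 13 higher and 5 lower, against 31.7% of all tested probes on the array, 20.7% higher and 11% lower. In DoxyNaB/Doxy, 17 were called (56.7%), 13 higher and 4 lower, against 30.6% of all tested probes, 18.3% higher and 12.3% lower. By gene, taking the probe of the highest mean level, 15 of 23 genes were called in each comparison, 10 higher and 5 lower in NaB/Ctl and 11 higher and 4 lower in DoxyNaB/Doxy. The genes called in the same direction in both numbered 14, 10 higher and 4 lower. The share of all tested probes called in both is not given here, so the size of this overlap is not judged. The comparisons share no array, but they share the experiments, the slides and the limma fit. They are therefore not independent of each other.

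Several members passed the background filter only through the treatments in which they were high, so the counts were repeated over the probes well above background on all 24 arrays. There, 10 of 20 member probes were called in NaB/Ctl (7 higher, 3 lower) against 26.6% of all such probes (15.2% higher, 11.4% lower). In DoxyNaB/Doxy 10 of 20 were called (8 higher, 2 lower) against 26.2% (13.9% higher, 12.3% lower). The median log2 change over these 20 probes was 0.63 in NaB/Ctl against 0.07 over all such probes, and 0.65 in DoxyNaB/Doxy against 0.04. Levels that did not overlap between the 6 NaB and the 6 Ctl arrays were found for 14 of the 30 tested probes, against 43.1% of all tested probes, and for 16 of 30 in DoxyNaB/Doxy against 41.5%.

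The balance of rises and falls depended on the scaling of the arrays. With quantile normalization the split in NaB/Ctl was 9 higher and 7 lower, and with each array scaled to its median it was 7 higher and 9 lower. Over the whole array, rises made up 65.3% of the NaB/Ctl calls with the 75th percentile, 43.7% with quantile normalization and 21.1% with median scaling. Scaling to the median moved the median log2 change of all tested probes from 0.17 to -0.58. The members' median lay 0.71 above it under either scaling, which was nearly fixed in advance because such scaling shifts all probes of an array alike. The gap was 0.23 with quantile normalization and 0.28 with normexp background correction. With no background filter on the whole array, the same 30 member probes lay 0.19 above the median of all probes. No gene called in either comparison changed its direction under any setting tried.

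**Figure D2:**
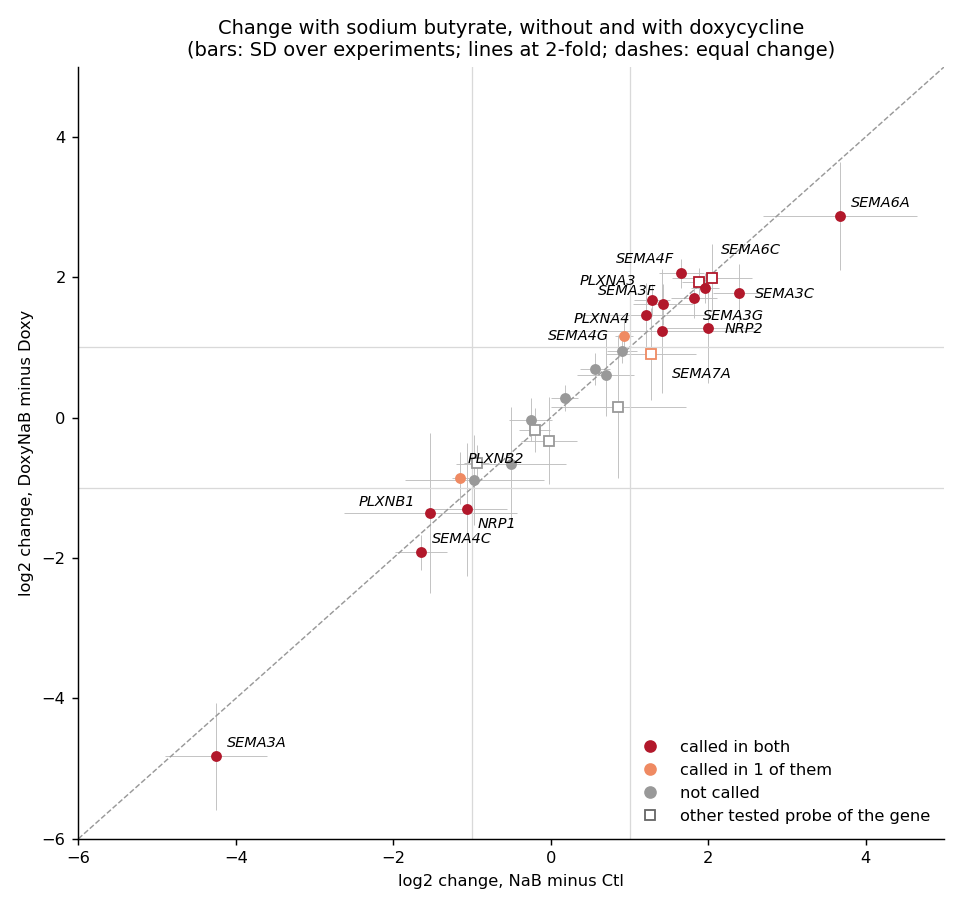
Log2 change in NaB/Ctl (horizontal axis) against log2 change in DoxyNaB/Doxy (vertical axis) for the 30 tested probes, with bars for the SD over experiments, thin lines at a 2-fold change and a dashed line where both changes are equal. Filled points are the probe of the highest mean level of each gene and open squares are other probes. SEMA3A lies alone at the lower left and SEMA6A and SEMA3C at the upper right.

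Among the secreted class 3 ligands, 5 of 7 genes were tested. Butyrate raised SEMA3C, SEMA3F and SEMA3G and lowered SEMA3A, both without and with doxycycline. SEMA3A, which collapses axonal growth cones through NRP1 and plexin-A receptors, had the largest fall of the family. Its level lay between -2.61 and -1.01 (median -1.34) on the Ctl arrays and between -1.88 and -0.89 (median -1.18) on the Doxy arrays. On the NaB arrays it lay between -6.72 and -4.68 (median -5.92) and on the DoxyNaB arrays between -6.96 and -5.05 (median -6.35), where it was not well above background on any array. All butyrate arrays were thus below all arrays without butyrate. Since the butyrate level is only an upper limit, SEMA3A was at least 8.35-fold lower in NaB than in Ctl (adjusted p 5.62e-11) and at least 10.5-fold lower in DoxyNaB than in Doxy (adjusted p 9.72e-12). With normexp background correction the fitted changes were smaller, -1.92 and -1.47, and still called, so the bounds hold for the processed signal only. That correction was run with an offset of 50, which by itself shrinks a change that reaches a faint level. They set the mean of the bright arrays against the faintest signal that counted as well above background, or the probe's own signal where that was higher, on each dim array. The SEMA3A probe lies at chr7:83426125-83426184 (NCBI36).

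SEMA3C, a secreted ligand that acts through neuropilins with plexin-A and plexin-D receptors, moved the other way. Its level was -3.49 to -2.51 (median -2.73) in Ctl and -0.83 to -0.18 (median -0.43) in NaB. Its log2 change in NaB/Ctl was 2.39 ± 0.33 (5.23-fold, adjusted p 6.01e-11), higher in 6 of 6 experiments. With doxycycline the level went from -4.05 to -2.70 (median -3.04) in Doxy to -1.70 to -0.99 (median -1.45) in DoxyNaB. That change was 1.77 ± 0.42 (3.42-fold, adjusted p 3.67e-09), again higher in 6 of 6. Neither pair of groups overlapped. The probe lies at chr7:80210348-80210407.

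SEMA3F and SEMA3G are class 3 ligands that bind NRP2. The SEMA3F level was -2.20 to -0.83 (median -1.68) in Ctl, -0.72 to 0.21 (median -0.11) in NaB, -2.19 to -1.39 (median -1.62) in Doxy and -0.56 to 0.47 (median -0.07) in DoxyNaB. Every butyrate array was above every array without it. SEMA3F rose 2.68-fold in NaB/Ctl (log2 change 1.42 ± 0.38, adjusted p 8.15e-08) and 3.07-fold in DoxyNaB/Doxy (1.62 ± 0.29, adjusted p 1.49e-08). The SEMA3G level was -3.39 to -1.92 (median -2.20) in Ctl, -1.34 to -0.22 (median -0.48) in NaB, -2.96 to -1.80 (median -2.28) in Doxy and -1.03 to -0.33 (median -0.68) in DoxyNaB. It rose 3.53-fold (1.82 ± 0.29, adjusted p 4.05e-10) and 3.25-fold (1.70 ± 0.28, adjusted p 1.07e-09). SEMA3B, the fifth tested gene of the class, was not called, with changes of -0.51 (adjusted p 0.0894) and -0.66 (adjusted p 0.0301).

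Among the transmembrane class 4 ligands, 5 of 6 genes were tested. SEMA4F rose and SEMA4C fell in both comparisons. SEMA4C, a ligand of PLXNB2, had a level of 0.32 to 1.47 (median 0.91) in Ctl and of -0.92 to -0.54 (median -0.74) in NaB. In Doxy its level was 0.82 to 1.42 (median 0.88) and in DoxyNaB -1.26 to -0.83 (median -0.90). The butyrate arrays were all below the others. SEMA4C was 3.14-fold lower in NaB/Ctl (log2 change -1.65 ± 0.33, adjusted p 1.04e-10) and 3.79-fold lower in DoxyNaB/Doxy (adjusted p 1.27e-11). The SEMA4F level was -2.86 to -2.17 (median -2.42) in Ctl, -1.05 to -0.66 (median -0.76) in NaB, -2.85 to -2.22 (median -2.52) in Doxy and -0.60 to -0.28 (median -0.50) in DoxyNaB. It rose 3.15-fold (1.65 ± 0.29, adjusted p 2.55e-11) and 4.15-fold (2.05 ± 0.20, adjusted p 1.33e-12). A further SEMA4F probe rose 3.70-fold and 3.82-fold.

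SEMA4G, also a transmembrane ligand, lay close to the fold threshold. Its level was -2.45 to -1.34 (median -2.01) in Ctl, -1.48 to -0.58 (median -1.05) in NaB, -2.44 to -1.42 (median -2.26) in Doxy and -1.30 to -0.56 (median -1.02) in DoxyNaB. The 1.90-fold difference in NaB/Ctl (0.93 ± 0.12, adjusted p 2.66e-08) was under the threshold and the 2.23-fold rise in DoxyNaB/Doxy (1.16 ± 0.26, adjusted p 1.35e-09) passed it. The difference between these changes was itself not called (-0.23, adjusted p 0.507). SEMA4D, the ligand of PLXNB1 that is also known from T cells, differed by probe. The probe of the higher level, at -2.46 to -1.96 (median -2.26) in Ctl and -1.84 to -1.13 (median -1.57) in NaB, was not called, with changes of 0.70 ± 0.36 (adjusted p 0.000964) and 0.60 ± 0.58 (adjusted p 0.00303). The fainter SEMA4D probe, at -4.72 to -3.36 (median -4.08) in Ctl and -3.54 to -1.55 (median -2.75) in NaB, was called in NaB/Ctl, with a 2.41-fold rise (1.27 ± 0.57, adjusted p 2.78e-05), but not in DoxyNaB/Doxy (0.91 ± 0.65, adjusted p 0.000795). SEMA4B was not called by either of its probes, whose changes ran from -0.26 to -0.03.

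In class 6, whose transmembrane members signal through plexin-A receptors, 3 of 4 genes were tested and SEMA6A and SEMA6C rose. SEMA6A was near background without butyrate, with levels of -7.30 to -5.52 (median -6.07) in Ctl, where 1 of 6 arrays was well above background, and of -6.66 to -4.15 (median -5.58) in Doxy, where 2 of 6 were. With butyrate all arrays were well above background, at -3.36 to -2.10 (median -2.45) in NaB and -3.83 to -1.99 (median -2.63) in DoxyNaB. The fitted rises were 12.8-fold in NaB/Ctl (3.68 ± 0.98, adjusted p 1.58e-08) and 7.31-fold in DoxyNaB/Doxy (2.87 ± 0.77 over 5 experiments, adjusted p 4.65e-07, 1 array having no usable spot). These sizes rest on values mostly below the background criterion in Ctl and Doxy, and SEMA6A passed the filter only through the butyrate arrays. SEMA6C had levels of -2.25 to -1.53 (median -1.81) in Ctl, -0.16 to 0.33 (median 0.16) in NaB, -2.00 to -1.58 (median -1.69) in Doxy and -0.10 to 0.38 (median 0.10) in DoxyNaB, with a wide gap between butyrate arrays and the others. It rose 3.89-fold (1.96 ± 0.18, adjusted p 4.37e-13) and 3.59-fold (1.84 ± 0.21, adjusted p 9.15e-13). SEMA6B was not called, with changes of -0.97 ± 0.88 (adjusted p 0.00461) and -0.89 ± 0.64 (adjusted p 0.00873) by the brighter probe and of -0.02 and -0.33 by the fainter one.

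SEMA7A, the lipid-anchored ligand of PLXNC1 and of integrins, had levels of -5.53 to -3.95 (median -4.84) in Ctl, -4.68 to -1.83 (median -3.42) in NaB, -5.15 to -3.83 (median -4.68) in Doxy and -4.26 to -1.32 (median -4.00) in DoxyNaB. The groups overlapped, and only in DoxyNaB were all 6 arrays well above background, so that SEMA7A entered the tests through that treatment. Its fitted rises of 2.65-fold (1.41 ± 1.18, adjusted p 0.00279) and 2.35-fold (1.23 ± 0.88, adjusted p 0.00728) varied widely between experiments. The NaB/Ctl call was lost without experiment 4 (1.24). The DoxyNaB/Doxy call was lost without experiment 2 (0.90), 4 (1.21), 5 (1.30) or 6 (1.25), and without the arrays of the highest negative controls, NaB of experiment 3 and DoxyNaB of experiment 2 (0.99).

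**Figure D3:**
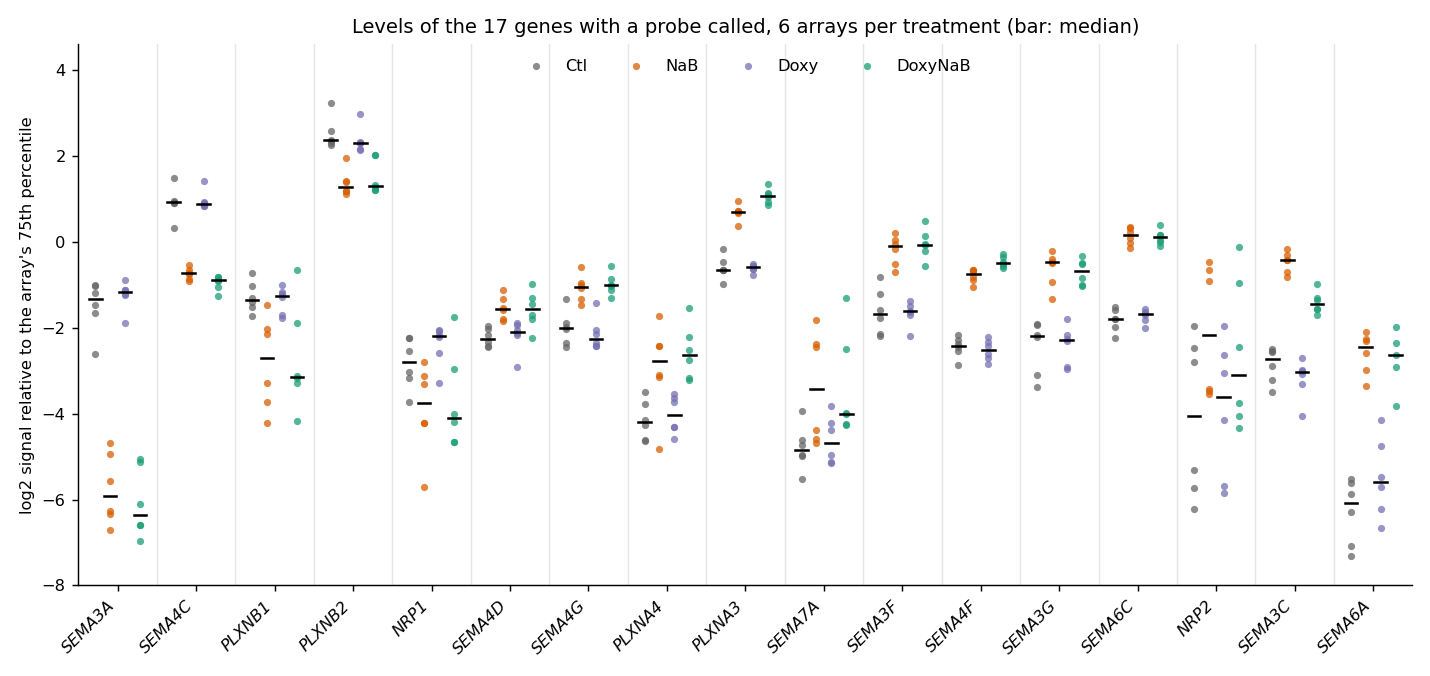
Level of 17 semaphorin, plexin and neuropilin genes on each array (log2 relative to the 75th percentile of the array), with the 4 treatments apart, 6 points per treatment and a bar at the median, ordered by the change in NaB/Ctl. The arrays with butyrate separate from those without it for SEMA3C, SEMA3A, SEMA6C, SEMA4F and SEMA4C, and overlap with them for SEMA7A.

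Among the receptors, 7 of 9 plexins were tested: the plexin-A genes PLXNA3 and PLXNA4 rose, and the plexin-B genes PLXNB1 and PLXNB2 fell. PLXNA3, a receptor for SEMA3F with NRP2, had levels of -0.99 to -0.16 (median -0.66) in Ctl, 0.37 to 0.95 (median 0.70) in NaB, -0.76 to -0.52 (median -0.60) in Doxy and 0.86 to 1.35 (median 1.07) in DoxyNaB. Every butyrate array was higher than every other array. It rose 2.44-fold (1.29 ± 0.23, adjusted p 3.9e-09) and 3.20-fold (1.68 ± 0.23, adjusted p 9.5e-11). The PLXNA4 level was -4.64 to -3.50 (median -4.21) in Ctl, -4.81 to -1.74 (median -2.78) in NaB, -4.59 to -3.55 (median -4.02) in Doxy and -3.22 to -1.54 (median -2.63) in DoxyNaB. Its rise was 2.31-fold in NaB/Ctl (1.21 ± 0.84, adjusted p 0.000221, 5 of 6 experiments), under the fold threshold without experiment 3 (0.97), and 2.74-fold in DoxyNaB/Doxy (1.46 ± 0.46, adjusted p 3.25e-05, 6 of 6). The 4 other PLXNA4 probes were not tested. PLXNA1 stayed under the fold threshold, with changes of 0.56 (adjusted p 0.000322) and 0.69 (adjusted p 3.74e-05).

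PLXNB2, the receptor of SEMA4C, had levels of 2.25 to 3.23 (median 2.36) in Ctl, 1.10 to 1.95 (median 1.28) in NaB, 2.13 to 2.96 (median 2.29) in Doxy and 1.20 to 2.02 (median 1.29) in DoxyNaB. It fell in all 6 experiments and was 2.22-fold lower in NaB/Ctl (-1.15 ± 0.10, adjusted p 1.51e-08). In DoxyNaB/Doxy it was 1.81-fold lower (-0.86 ± 0.37, adjusted p 7.25e-07), short of the fold threshold, and it passed that threshold without experiment 6 (-1.01). A test of the difference between the changes did not separate them (-0.29, adjusted p 0.467). The fainter PLXNB2 probe gave changes of -0.94 and -0.65.

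PLXNB1 is the receptor of SEMA4D that associates with MET and ERBB2. Its probe crosses a splice junction, spanning 2298 bases of the genome at chr3:48423444-48425741 (NCBI36, minus strand), and is shown because this receptor rests on 1 probe.
PLXNB1 probe: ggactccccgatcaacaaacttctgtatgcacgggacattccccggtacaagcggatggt
Its level was -1.73 to -0.72 (median -1.36) in Ctl, -4.22 to -1.48 (median -2.71) in NaB, -1.77 to -1.00 (median -1.26) in Doxy and -4.17 to -0.66 (median -3.15) in DoxyNaB. The butyrate arrays spread far more widely than the others. PLXNB1 was 2.89-fold lower in NaB/Ctl (-1.53 ± 1.10, adjusted p 0.00127, lower in 6 of 6) and 2.56-fold lower in DoxyNaB/Doxy (-1.36 ± 1.14, adjusted p 0.00329, lower in 5 of 6). Within the scan of experiments 2 to 4 the NaB/Ctl change was -0.57 and within that of experiments 5 and 6 it was -2.45. The NaB/Ctl call was lost without experiment 1 (-1.32) or 6 (-1.35), and the DoxyNaB/Doxy call without experiment 1 (-1.19), 5 (-1.13) or 6 (-1.33). PLXNB3, a receptor of SEMA5A, was not called at 0.91 (adjusted p 8.12e-08) and 0.94 (adjusted p 4.9e-08), and PLXND1, the receptor of SEMA3E, was not called at 0.18 (adjusted p 0.0499) and 0.28 (adjusted p 0.00445).

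The neuropilins, the co-receptors of class 3 semaphorins, went in opposite directions by the probe of the higher level. NRP2 rose and NRP1 fell, but the other tested NRP1 probe was not called. NRP2 carries 3 probes, all on the plus strand of chromosome 2 (NCBI36), at chr2:206316325-206316384, chr2:206270630-206270689 and chr2:206367948-206368007. The third was not tested. They are shown with the NRP1 probe that crosses a junction (chr10:33536628-33542356, minus strand) because the neuropilin results differ by probe.
NRP2 brighter probe: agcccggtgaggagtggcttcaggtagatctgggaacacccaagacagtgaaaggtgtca
NRP2 fainter probe: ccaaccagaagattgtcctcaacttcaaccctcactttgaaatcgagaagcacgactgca
NRP2 untested probe: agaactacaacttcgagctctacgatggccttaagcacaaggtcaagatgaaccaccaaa
NRP1 junction probe: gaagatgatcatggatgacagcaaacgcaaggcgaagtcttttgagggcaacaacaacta
By the brighter probe the NRP2 level was -6.22 to -1.97 (median -4.05) in Ctl, -3.56 to -0.48 (median -2.17) in NaB, -5.85 to -1.97 (median -3.61) in Doxy and -4.34 to -0.12 (median -3.10) in DoxyNaB. The groups overlapped, yet the level rose within each of the 6 experiments, by 4.00-fold in NaB/Ctl (2.00 ± 0.59, adjusted p 5.25e-06) and 2.43-fold in DoxyNaB/Doxy (1.28 ± 0.78, adjusted p 0.000611). The fainter NRP2 probe lay between -5.14 and -4.54 (median -4.89) in Ctl and between -3.39 and -2.45 (median -2.78) in NaB, without overlap. Its rises were 4.14-fold (2.05 ± 0.51, adjusted p 8.79e-08) and 3.98-fold (1.99 ± 0.48, adjusted p 1.31e-07). Neither tested NRP2 probe was well above background on all 24 arrays. The brighter NRP2 probe is so named for its mean over all arrays. In Ctl it was higher than the fainter one in experiments 2 to 4 (-1.97, -2.79 and -2.48 against -5.14, -4.92 and -4.97). In experiments 1, 5 and 6 it was lower (-5.74, -5.31 and -6.22 against -4.87, -4.54 and -4.82).

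The brighter NRP1 probe (chr10:33506942-33507001) holds a stop codon in every reading frame, and the files assign it to another transcript than the junction probe. Its level was -3.72 to -2.23 (median -2.79) in Ctl, -5.70 to -2.81 (median -3.76) in NaB, -3.30 to -2.06 (median -2.19) in Doxy and -4.67 to -1.74 (median -4.10) in DoxyNaB. It was called lower, 2.10-fold in NaB/Ctl (-1.07 ± 0.52, adjusted p 0.00158, lower in 6 of 6) and 2.48-fold in DoxyNaB/Doxy (-1.31 ± 0.95, adjusted p 0.000267, lower in 5 of 6), and the former call was lost without experiment 1 (-0.89). The junction probe, at -4.82 to -2.75 (median -3.90) in Ctl and -4.51 to -1.21 (median -3.05) in NaB, was higher in 6 of 6 experiments by 0.86 ± 0.86 without being called (adjusted p 0.027). Most of this rise lay in experiments 2 to 4, from -2.75 to -1.83, -3.48 to -1.21 and -3.21 to -1.81, where negative controls also rose with butyrate. In experiments 5 and 6 the level went from -4.58 to -4.38 and from -4.31 to -4.26. The part of the background in this rise was not tested. In DoxyNaB/Doxy the junction probe differed by 0.16 ± 1.01 (adjusted p 0.68). The change by the brighter probe minus that by the junction probe was -1.93 ± 0.70 in NaB/Ctl and -1.47 ± 0.45 in DoxyNaB/Doxy, below 0 in 6 of 6 experiments each. In an exact two-sided sign-flip test over the experiments both gave p 0.0313, the smallest that 6 experiments allow, and an adjusted p of 0.109 over the 14 such tests of 7 genes, which were chosen after the values had been seen. SEMA6B (-0.95) and SEMA4F (-0.23) in NaB/Ctl gave the same exact p. For the NRP2 probes the difference was -0.05 in NaB/Ctl (exact p 0.969) and -0.71 in DoxyNaB/Doxy (exact p 0.0625).

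**Figure D4:**
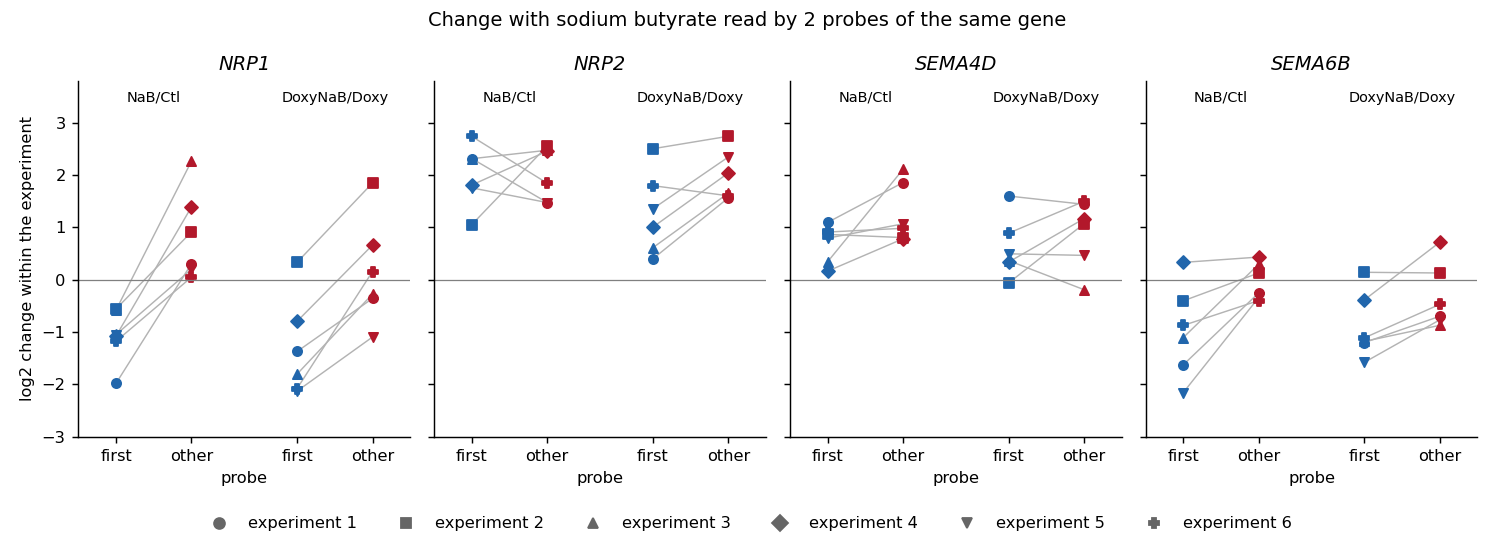
Log2 change within each experiment in NaB/Ctl and DoxyNaB/Doxy by the brighter and the other probe of NRP1, NRP2, SEMA4D and SEMA6B, with a line joining the values of an experiment. For NRP1 all 6 lines climb from the brighter probe to the other in both comparisons, and for NRP2 in NaB/Ctl they have no common direction.

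The background correction mattered most for the faint members. With normexp on the mean and background signals, 8 member probes were called in NaB/Ctl (4 higher, 4 lower) and 10 in DoxyNaB/Doxy (8 higher, 2 lower). By gene, NRP1, NRP2, PLXNA4 and SEMA7A were then called in neither comparison. SEMA3G (0.98), SEMA4F (0.90) and SEMA6A (0.94) were no longer called in NaB/Ctl, nor SEMA4G (0.90) and PLXNB1 (-0.41) in DoxyNaB/Doxy. The probes of SEMA3G, SEMA4F, SEMA4G and PLXNB1 were well above background on all 24 arrays, so the loss was not confined to faint members.

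With butyrate present, changes on adding doxycycline were about as rare among family members as over all tested probes, and only SEMA3C passed the adjusted p. No member was called in DoxyNaB/NaB at 2-fold, against 0.374% of all tested probes. At the adjusted p alone 1 of the 30 tested member probes was, that of SEMA3C, against 2.48%, and 6 had an unadjusted p under 0.05 in limma. SEMA3C was 1.91-fold lower in DoxyNaB than in NaB (-0.93 ± 0.18, adjusted p 0.000567), lower in 6 of 6 experiments, and the NaB arrays (-0.83 to -0.18) did not overlap the DoxyNaB arrays (-1.70 to -0.99). Over 18 alternative settings this change lay between -1.30 and -0.62, always lower, with an adjusted p between 0.000205 and 0.344 and under 0.01 in 11 of the 18. Among the 7 settings in which it was not, scaling to the median gave 0.344 and normexp 0.113. SEMA4F was the other member without overlap, 0.32 higher in DoxyNaB (adjusted p 0.0626, 6 of 6). The share of member probes whose NaB and DoxyNaB arrays did not overlap was 2 of 30, against 1.66% of all tested probes. PLXNA3 was 0.38 higher (adjusted p 0.0476).

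**Figure D5:**
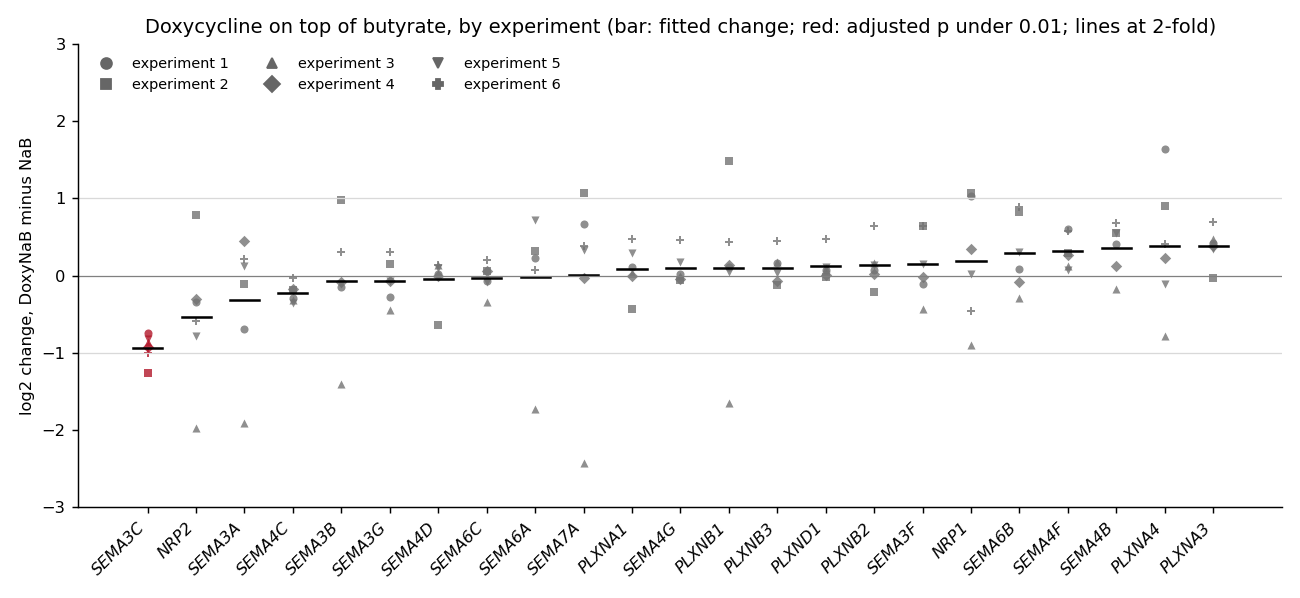
Difference in level between the DoxyNaB and NaB arrays of each experiment (log2) for the 23 tested genes, with a bar at the fitted change and red for an adjusted p under 0.01. The 6 SEMA3C points are all below 0, and most other genes straddle 0.

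The size of the butyrate response with and without doxycycline was compared directly as the NaB/Ctl change minus the DoxyNaB/Doxy change. No family member passed at an adjusted p under 0.01 in limma, against 1.24% of all tested probes, and 4 had an unadjusted p under 0.05. The SEMA3C rise was larger without doxycycline by 0.61 ± 0.48 in 6 of 6 experiments, which did not pass (adjusted p 0.176). For SEMA4F the difference was -0.40 (adjusted p 0.175), for PLXNA3 -0.39 (adjusted p 0.263) and for the fainter PLXNB2 probe -0.29 (adjusted p 0.297). Without butyrate, doxycycline gave no called member in Doxy/Ctl, against 0.0948% of all tested probes, and 2 had an unadjusted p under 0.05. These were SEMA6A at 0.79 (adjusted p 0.309) and SEMA3C at -0.32 (adjusted p 0.373).

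Partners of the family were described from 4 lists of 70 genes: growth factor receptors and adhesion molecules that pair with plexins or neuropilins, VEGF-type ligands of neuropilins, proteases that cut semaphorins, and intracellular effectors. Of these, 57 were tested. In NaB/Ctl 13 were called higher and 3 lower, and in DoxyNaB/Doxy 14 higher and 5 lower. In NaB/Ctl this was 28.1% of the list, 22.8% higher and 5.26% lower, close to the share of all tested probes (31.7%, 20.7% higher and 11% lower). In DoxyNaB/Doxy it was 33.3% against 30.6%. The median change was 0.45 in NaB/Ctl against 0.17 over all tested probes, and 0.26 in DoxyNaB/Doxy against 0.10. The 7 tested proteases gave no call in either. Of the 36 tested effectors, 8 were called higher and 1 lower in NaB/Ctl, and 10 higher and 2 lower in DoxyNaB/Doxy, so 22.2% and 27.8% were higher, against 20.7% and 18.3% of all tested probes.

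Of the receptors that pair with PLXNB1, MET, the hepatocyte growth factor receptor, fell with PLXNB1. Its level was 2.59 to 2.86 (median 2.70) in Ctl, 0.25 to 0.68 (median 0.49) in NaB, 2.55 to 2.85 (median 2.62) in Doxy and 0.10 to 0.62 (median 0.35) in DoxyNaB. The changes were -2.22 ± 0.12 (adjusted p 7.95e-14) and -2.32 ± 0.22 (adjusted p 4.01e-14). ERBB2 was not called in NaB/Ctl (-0.77 ± 0.74, adjusted p 0.00848) and was called lower in DoxyNaB/Doxy (-1.03 ± 0.67, adjusted p 0.000937). L1CAM, an adhesion molecule that associates with NRP1, rose by 1.10 ± 0.51 (adjusted p 0.000607) and 1.05 ± 0.44 (adjusted p 0.000905).

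The largest rises of the lists in NaB/Ctl were those of RND1 and RND2, which encode plexin-binding proteins. RND1 rose 9.89-fold (3.31 ± 0.44, adjusted p 4.42e-11), and by 3.15 ± 0.45 in DoxyNaB/Doxy. RND2 rose by 2.72 ± 0.67 (adjusted p 8.07e-08) from a Ctl level that was well above background on 1 of 6 arrays, so its size and rank rest on values mostly below the background criterion. The next largest rise, named here after its values were seen, was that of DPYSL4, a semaphorin-signaling phosphoprotein of the CRMP family, at 2.37 ± 0.22 and well above background on all 24 arrays. On the Doxy arrays RND2 was not well above background, and it was at least 4.13-fold higher in DoxyNaB (adjusted p 1.58e-08). Besides MET, the largest fall was that of VEGFB, a ligand of NRP1, at -1.74 ± 0.18 (adjusted p 3.22e-11). VEGFA, which binds both neuropilins, was not called, at 0.65 ± 0.26 in NaB/Ctl (adjusted p 1.14e-05) and 0.06 in DoxyNaB/Doxy (adjusted p 0.59), and the difference of these changes did not pass (0.59 ± 0.15, adjusted p 0.0336). The difference passed for 2 partners, named here after their values were seen: TGFB1, a growth factor ligand that binds NRP1, by 0.74 ± 0.21 (adjusted p 0.000911), and RND3 by 0.74 ± 0.24 (adjusted p 0.00173), both with the larger rise without doxycycline in 6 of 6 experiments.

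Markers of the labelled cell type were measured in the same way. Of 9 colonic epithelial markers, 6 were tested (EPCAM, CDH1, KRT8, KRT18, KRT19 and CDX2), and all 6 were well above background on all 24 arrays. Their summed linear level relative to the 75th percentile was 210 to 252 in Ctl, 274 to 502 in NaB, 216 to 297 in Doxy and 253 to 360.1 in DoxyNaB, and 1, EPCAM, was called lower in NaB/Ctl (-1.45). Of 4 markers each of other cell types, 3 neural, 2 endothelial, 2 leukocyte and 1 fibroblast gene were tested. The summed level of the neural markers was 4.68 to 6.05 in Ctl and 16.3 to 27.3 in NaB, and 4.52 to 6.47 in Doxy and 14.9 to 25.1 in DoxyNaB. The endothelial sum was 0.0786 to 0.134 in Ctl and 0.17 to 0.533 in NaB, and the leukocyte sum 0.0881 to 0.11 in Ctl and 0.426 to 0.608 in NaB. None of the tested endothelial or leukocyte markers was well above background on all 24 arrays. Both sums thus rest in part on values below that criterion, and the size of their rise is uncertain. The fibroblast marker COL1A1 lay at 0.239 to 0.451 in Ctl and 0.512 to 0.827 in NaB, and COL3A1 was well above background on 0 arrays. These sums were higher in NaB than in Ctl, in cells of 1 clone, whereas members moved in both directions. Their part in the members' changes was not tested. Fewer cells and less RNA per cell cannot be told apart on such arrays.

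Promoter sequence is given for members that changed with butyrate, since the blocked factor, Tcf4, binds the letters CTTTGA. RefSeq (GRCh38.p14) starts were found for 27 of the 31 genes, 48 starts in all, each with the 250 bases before it. These include starts of members that were not called or not tested. CTTTGA, on either strand (TCAAAG), was in 5 of these 48 windows, or 10.4%, against 11.2% of 35116 windows of the same length. The 5 belong to PLXNA1, SEMA3F, SEMA4G, SEMA5B and SEMA6D. Of these genes, SEMA3F was called in both butyrate comparisons and SEMA4G in DoxyNaB/Doxy, PLXNA1 was not called, and SEMA5B and SEMA6D were not tested. GGGCGG, the letters of an Sp1-type GC box, on either strand (CCGCCC), was in 30 of 48, or 62.5%, against 42.6%. The members' windows had a median of 15 CpG and 64.8% GC, against 11 and 58% over all windows. The windows below are those of SEMA3C, which has a GC-rich and an AT-rich start, of SEMA6C, which rose, and of SEMA4C, which fell, all on the minus strand. Capitals mark GGGCGG or CCGCCC, and none of the windows shown holds CTTTGA.
SEMA3C, chr7:80919052-80919301: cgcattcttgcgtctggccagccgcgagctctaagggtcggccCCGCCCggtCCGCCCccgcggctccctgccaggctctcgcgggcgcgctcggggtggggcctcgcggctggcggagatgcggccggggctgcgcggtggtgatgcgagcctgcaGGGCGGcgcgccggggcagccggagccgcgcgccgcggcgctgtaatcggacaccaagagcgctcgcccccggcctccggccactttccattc
SEMA3C, chr7:80922390-80922639: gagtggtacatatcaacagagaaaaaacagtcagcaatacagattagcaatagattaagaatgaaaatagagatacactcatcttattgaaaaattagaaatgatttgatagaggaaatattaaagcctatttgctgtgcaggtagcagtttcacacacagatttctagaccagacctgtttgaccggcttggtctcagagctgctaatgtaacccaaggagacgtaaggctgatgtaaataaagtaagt
SEMA6C, chr1:151146632-151146881: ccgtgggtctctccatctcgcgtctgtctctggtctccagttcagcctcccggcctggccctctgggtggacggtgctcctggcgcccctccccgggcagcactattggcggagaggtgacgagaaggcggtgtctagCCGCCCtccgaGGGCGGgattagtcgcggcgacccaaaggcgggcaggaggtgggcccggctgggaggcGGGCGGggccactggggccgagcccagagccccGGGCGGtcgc
SEMA4C, chr2:96870081-96870330: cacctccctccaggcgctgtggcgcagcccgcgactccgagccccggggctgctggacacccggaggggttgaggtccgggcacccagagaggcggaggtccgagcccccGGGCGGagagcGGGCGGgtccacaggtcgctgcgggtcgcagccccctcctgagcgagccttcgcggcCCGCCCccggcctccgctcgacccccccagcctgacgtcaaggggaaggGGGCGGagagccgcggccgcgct
The GC-rich SEMA3C window holds 39 CpG and 3 GC boxes and the AT-rich one 2 CpG and 0 GC boxes, while the SEMA6C and SEMA4C windows, of genes that moved in opposite directions, hold 4 GC boxes each. The array data do not say which SEMA3C start was used. A match of letters is a description of the window and not a binding site.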

How the data were processed

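RNA from 4 treatments in 6 experiments was hybridised to Agilent Human v2 GE 4x44K arrays. Per the file headers, the deposited intensity values are Feature Extraction 9.5.3.1 processed signals, background-subtracted by the scanner software, with coordinates on NCBI36. The labels give treatment and experiment number. From these, control and outlier spots were left out, spots of a probe averaged, and log2 levels computed against the 75th percentile of each array. The tested probes (18979 of 34127) were those for which some treatment had all 6 arrays well above background. The fit was limma 3.58.1 in R 4.3.3, over 24 arrays, with treatment and experiment as terms. The study's text uses a paired test with a 2-fold threshold and 0.01 or 0.05 for p, with no adjustment stated. Here 0.01 was applied to the adjusted p. Where a gene has several tested probes, the one of the highest mean level stands for it. Values by treatment are given for member genes with a probe called in any comparison. For the partner lists they are given for MET, ERBB2, VEGFA, L1CAM and the 2 largest NaB/Ctl changes each way that were alike in 6 of 6 experiments. The experiment numbers pair the arrays by the study's methods and labels. Residuals of same-experiment arrays correlated with r up to 0.853 in 36 pairs, the lowest -0.22 and the next 0.219. Arrays of different experiments in 1 scan reached similar values, such as 0.885 for DoxyNaB of experiment 2 with NaB of experiment 3. Across scans r could be strongly negative, such as -0.785 for DoxyNaB of experiment 6 with NaB of experiment 3. These correlations therefore do not set experiment apart from scan. The members and lists were chosen with earlier results of these data known. The code was tested on simulated data. The number of arrays limits the precision, and the p-values measure the spread between repeats of 1 clone.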

Additional observations from a re-analysis of the deposited data

Results flagged for a closer look

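Levels in groups of 6 arrays were screened for an array far from the others, by the gap to its nearest neighbour as a share of the group's range (Dixon's ratio, against its critical value for 6 arrays). Of 68 groups of named genes, 6 had such an array, where chance gives about 5%. All 6 values were from experiment 1, on its Ctl, NaB and Doxy arrays. PLXNB2 was highest in that experiment in Ctl (3.23, next 2.59, ratio 0.66), NaB (1.95, next 1.41, ratio 0.631) and Doxy (2.96, next 2.33, ratio 0.769). On the Doxy array of the same experiment SEMA4C was highest (1.42, next 0.92, ratio 0.827), SEMA3A lowest (-1.88, next -1.24, ratio 0.644) and SEMA4D lowest (-2.92, next -2.17, ratio 0.721). Without experiment 1, the DoxyNaB/Doxy change was -4.77 for SEMA3A and -1.86 for SEMA4C, both still called, and -0.84 for PLXNB2 and 0.41 (0.60 with all experiments) for SEMA4D, both not called with or without it. The NaB/Ctl change of PLXNB2 was -1.12, still called.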

How the results depend on the processing

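The count of member probes called in NaB/Ctl was 18, and 10 when only probes well above background on all arrays were tested and 8 with normexp background correction. In DoxyNaB/Doxy it was 17, and 10 under either of these. In the same order, calls over all probes tested were 6013 of 18979, 4008 of 15088 and 2991 of 18979 in NaB/Ctl. In DoxyNaB/Doxy they were 5802, 3953 and 3644. Leaving out each experiment in turn gave 16 to 19 and 15 to 18 member probes. In DoxyNaB/NaB the count was 0, and 1 (SEMA3C) at a 1.5-fold threshold. Without the experiment as a block for the pairing, 15 and 13 were called in the butyrate comparisons, and DoxyNaB/NaB, Doxy/Ctl and the difference of responses stayed at 0 with and without it and on leaving out each experiment. With the slide as block the counts were 17 and 17, with the methods' t-test 15 and 13, within experiments 2 to 4 they were 15 and 14, and within experiments 5 and 6 they were 18 and 18. Of the 30 calls by gene, all kept their direction in every setting that gave a value, while 13 lost the call with normexp, 9 with median scaling, 7 with quantile normalization, 7 without the block and 7 with the methods' t-test. The causes were not tested. Signal over background limits NRP1, NRP2, PLXNA4, SEMA3A, SEMA6A and SEMA7A, none of which was well above background on all 24 arrays.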
